A study of Mus musculus with 28 samples.

Results

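The genes described here are 9 TALE homeobox genes, namely Meis1, Meis2, Meis3, Pbx2, Pbx3, Pbx4, Pknox1, Pknox2 and Tgif1. These genes were grouped as cofactors of Hoxa2 and other Hox factors, although Tgif1 is known mainly as a repressor. They were chosen by name from 21887 protein-coding genes, and all 9 matched the gene table. The data are intervals of H3K27ac, a histone acetylation found at active promoters and enhancers, in the mouse assembly GRCm38. They were called once on reads merged from 4 libraries of wild-type E10.5 cranial neural crest cells, dissected and then isolated by FACS. Each library came from another population, with the labels FNP, Mx, Md or PA2. The reporter or surface marker used for sorting is not given in the sources used here. Intervals that overlapped a gene or lay within 150 kb of it were taken, which gave 354 of the 125826 intervals. No interval was shared by 2 members.

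TALE proteins carry a homeodomain with extra residues in the loop between its helices. Pbx proteins bind DNA together with Hox proteins, and Meis and Pknox proteins (the latter also called Prep) bind Pbx and can join such complexes. Tgif1 belongs to the same class but is known mainly as a repressor that acts on TGF-beta and retinoid responses. In the face and pharyngeal arches, Meis and Pbx factors are known partners of Hoxa2, the Hox gene that sets the identity of the second arch.

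Each interval carries the authors' score, a whole number that the peak caller by convention derives from its q-value and that grows with the number of reads. It was used only to describe and rank intervals within the list. With 1 pooled list there are no replicates, depth is unknown, and no difference below has a replicate error or a test. The list also cannot tell populations apart, or fewer acetylated cells from less acetylation per cell. The labelled cell type was compared with markers. Of 10 crest mesenchyme markers, 9 had an interval within 1 kb of a gene end, against 65.0% of all protein-coding genes. The exception was Tfap2a, with 8 intervals over the gene. Of 4 blood markers 1 had an interval at a gene end (Spi1, score 1492), and of 4 epithelial markers 1 (Epcam, score 439). Of 4 endothelial, 4 neuronal and 4 muscle markers, 3 each had one. An interval over the gene was found in all 10 crest, 4 epithelial and 4 endothelial markers. It was found in 3 neuronal, 3 muscle and 1 blood marker, against 73.1% of all protein-coding genes. The median gene-end score of marked genes was 1380 for crest (from 87 to 4697) and 258 for neurons (81 to 4646). It was 143 for muscle (137 to 380), 108 for endothelium (98 to 435) and 2494 for all protein-coding genes. The crest range thus overlapped the others, and the marked blood gene, Spi1, lay above the crest median. The part of other cells in the results below was not tested.

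Promoter windows of 300 bases (250 before the annotated start and 50 from it) were listed by RefSeq in GRCm38.p6 for 6 of the 9 members, with 10 starts. They are printed below for 4 starts, because they show how the intervals lay beside the start, or, for Meis2, that none reached the window. Letters inside an H3K27ac interval are in capitals, and the strand of the gene is followed from 5′ to 3′.
Meis1, chr11:19018920-19019219, minus strand: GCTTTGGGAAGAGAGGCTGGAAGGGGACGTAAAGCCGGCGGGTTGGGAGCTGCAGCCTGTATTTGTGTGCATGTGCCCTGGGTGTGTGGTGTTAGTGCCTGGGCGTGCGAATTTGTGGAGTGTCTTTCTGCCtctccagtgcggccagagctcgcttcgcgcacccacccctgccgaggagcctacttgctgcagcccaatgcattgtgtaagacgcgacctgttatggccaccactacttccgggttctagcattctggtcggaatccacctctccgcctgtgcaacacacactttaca
Meis2, chr2:116064570-116064869, minus strand: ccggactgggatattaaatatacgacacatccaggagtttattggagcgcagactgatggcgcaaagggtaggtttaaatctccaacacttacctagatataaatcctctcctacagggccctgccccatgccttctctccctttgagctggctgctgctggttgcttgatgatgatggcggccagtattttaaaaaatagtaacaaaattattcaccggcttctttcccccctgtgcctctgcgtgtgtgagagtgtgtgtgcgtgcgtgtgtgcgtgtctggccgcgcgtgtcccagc
Pbx2, chr17:34592009-34592308, plus strand: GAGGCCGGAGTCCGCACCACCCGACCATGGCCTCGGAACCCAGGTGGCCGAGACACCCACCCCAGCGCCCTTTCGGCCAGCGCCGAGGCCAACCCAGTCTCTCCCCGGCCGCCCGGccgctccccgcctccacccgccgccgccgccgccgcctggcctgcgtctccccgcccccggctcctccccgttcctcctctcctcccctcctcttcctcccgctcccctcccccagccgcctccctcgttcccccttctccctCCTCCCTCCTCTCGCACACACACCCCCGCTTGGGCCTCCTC
Tgif1, chr17:70849741-70850040, minus strand, the second of 5 starts by coordinate: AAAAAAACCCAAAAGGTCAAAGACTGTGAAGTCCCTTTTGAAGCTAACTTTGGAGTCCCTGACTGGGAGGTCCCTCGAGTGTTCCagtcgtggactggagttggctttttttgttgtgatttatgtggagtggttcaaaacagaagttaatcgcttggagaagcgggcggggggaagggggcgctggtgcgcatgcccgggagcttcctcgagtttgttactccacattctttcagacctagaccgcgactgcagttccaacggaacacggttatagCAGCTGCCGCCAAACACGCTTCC

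In Meis1, the interval covered the first 132 bases of the window and ended 119 bp before the start. In Meis2, no base of the window lay in an interval. The nearest one began 305 bp downstream of the start. In Pbx2, intervals covered 157 bases and left a gap of 143 bp around the start, with 135 bp to the upstream and 9 bp to the downstream interval. In the Tgif1 window, intervals covered 108 bases and the gap at the start was 192 bp wide. The windows of Meis3 and Pbx4, not printed, had their starts inside an interval, with 300 and 167 bases covered.

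The hexamer TGACAG, the core that Meis, Pknox and Tgif proteins recognise, was searched on both strands. It was found in 2 of the 10 windows, both of Tgif1, beginning at bases 39 and 6 when the start is base 1. Of 21263 promoter windows of protein-coding genes, 18.7% held it. TGATNNAT, a form of the Pbx and Hox composite site, was found in 1 of the 10, the printed Tgif1 window, beginning at base -134 and outside the capitals, against 7.45% of all windows. These matches are letters only and do not show binding. The 2 motifs did not occur in the same window.

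The question for the annotated starts was how acetylation sat around them. Of the 10 starts, 4 lay between 2 intervals that were each within 1 kb, namely that of Pbx2 and 3 of Tgif1, against 13.9% of all 21263 starts. Another 2 lay inside an interval, against 40.4% of all starts. The remaining starts had an interval within 1 kb on a single side (3) or none (1). The starts of Tgif1 share their intervals and are not independent, and 5 of the 10 starts are from this gene.

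**Figure D1:**
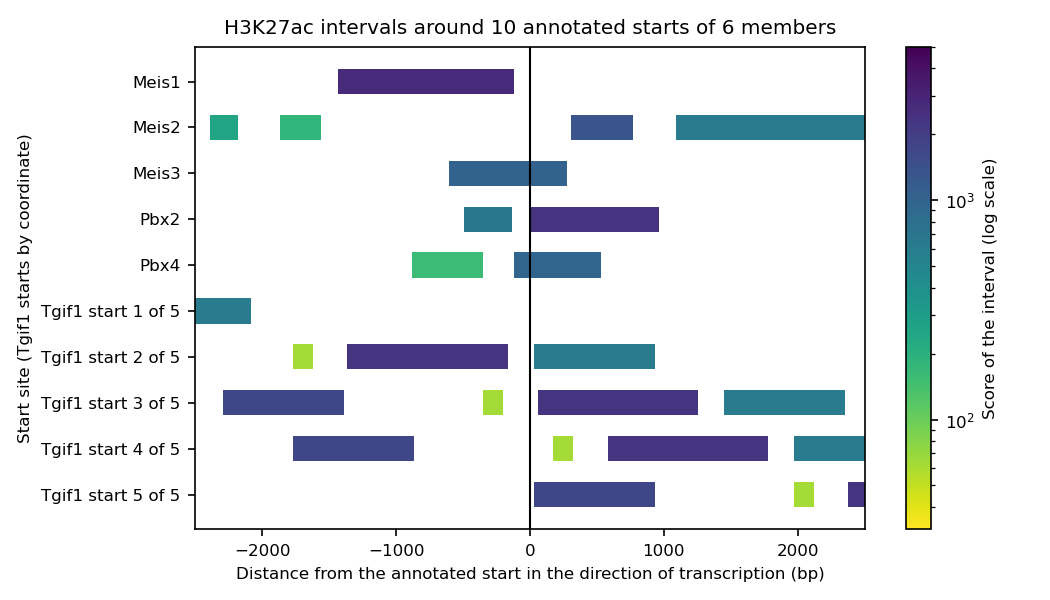
H3K27ac intervals (bars, coloured by score on a log scale) around the 10 annotated starts of 6 members; the x axis is the distance from the start in bp in the direction of transcription, and Tgif1 starts are in order of coordinate. The starts of Meis3 and Pbx4 lie inside a bar, and those of Pbx2 and of 3 Tgif1 starts lie in a gap between 2 bars.

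All 9 members had an interval within 1 kb of an annotated gene end, against 65.0% of all protein-coding genes. All 9 also had an interval over the gene itself, against 73.1%. Long genes more often had either. Among 1872 protein-coding genes of 100 to 300 kb, the length class of 4 members, the shares were 80.4% and 97.6%. Intervals at both gene ends were rare, with 1 of 9 members (Meis2) against 9.91% of all protein-coding genes. The highest score at a gene end was 5403 at Pbx3, followed by 3935 at Pknox1, 3925 at Pknox2, 2742 at Meis1, 2362 at Pbx2, 1707 at Tgif1, 1031 at Meis3, 972 at Pbx4 and 257 at Meis2. The median was 2362, close to the 2494 of all marked protein-coding genes. The members spread from a level below which 14.4% of marked genes lay (Meis2) to one below which 79.7% lay (Pbx3). Neighbours in this order, such as Pknox1 and Pknox2 or Meis3 and Pbx4, cannot be separated without replicates.

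Among the Meis genes, which encode the partners best known from limb, hindbrain and arch patterning, Meis1 had the strongest marked end. Its interval chr11:19019088-19020400 was 1313 bp wide. It also lay at an end of the non-coding gene Gm16141, named here after its values were seen. Another interval 6.84 kb outside the gene on the same side, chr11:19026494-19027751, was 1258 bp wide and had a score of 1821, the highest of all 59 Meis1 intervals away from protein-coding gene ends. At the other, 3′ end, no interval lay within 1 kb. Another 3 intervals beside the non-coding gene 8430419K02Rik, also named after its values were seen, lay outside that end, at 18876433 to 18878438 on chromosome 11, with scores of 738, 828 and 184.

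Meis2 is a factor required for crest-derived parts of the face, and its values depended on which start was read. The outer gene ends had scores of 257 and 239. The interval with the highest score, 1336, lay inside the gene at chr2:116063851-116064314, just downstream of the start whose promoter is printed above. Beside it, chr2:116061522-116063525 was 2004 bp wide with a score of 610. Of all intervals in the list, 0.164% were at least 1900 bp wide. Read at annotated starts, Meis2 stood above 30.9% of marked genes. Tgif1 changed likewise, from 1707 at its gene end to 2315 at an inner start (chr17:70849956-70851153).

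Meis3, the shortest of the Meis genes at 12.5 kb, had a single interval over the gene, chr7:16174789-16175672, with a score of 1031. This interval held the annotated start but began more than 0.5 kb inside the outer gene end. With a window of 0.5 kb, Meis3 was the only member of the 9 without a marked end. Pbx2 and Pbx4, of 5.14 and 39.8 kb, also had 1 interval each over the gene. That of Pbx2, chr17:34592268-34593223, had a score of 2362 and lay within 1 kb of the end of its neighbour Gpsm3 as well. That of Pbx4, a Pbx gene best known from the testis, was chr8:69832507-69833153 with a score of 972. At its start, Pbx4 stood above 25.6% of marked genes, the lowest of the 6 members with listed starts.

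Pbx3 had the highest score at a gene end of the Pbx genes, at chr2:34370773-34372709, 1937 bp wide. Another interval inside the gene, chr2:34249296-34250279, had a score of 2347 and lay 78.3 kb from the nearer gene end. The other 21 intervals over Pbx3 had scores from 42 to 282. No promoter window of Pbx3, Pknox1 or Pknox2 was listed, so whether a start lies at the inner site was not tested.

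Pknox1, which encodes Prep1, had its annotated gene end between intervals with scores of 3935 (chr17:31563678-31564414) and 3572 (chr17:31564866-31566005). Inside it lay chr17:31570347-31570591, with a score of 2835 over only 245 bp. Of 70044 intervals of 300 bp or less, 130 (0.186%) reached a score of 2000. No control is named for the peak calls and duplicate reads were kept, and the part of piled-up reads in this interval was not tested. Pknox2 had the broadest marked end of the members, chr9:37145164-37147149, 1986 bp wide with a score of 3925. Its inner intervals were led by chr9:37052975-37054273, with a score of 1660.

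**Figure D2:**
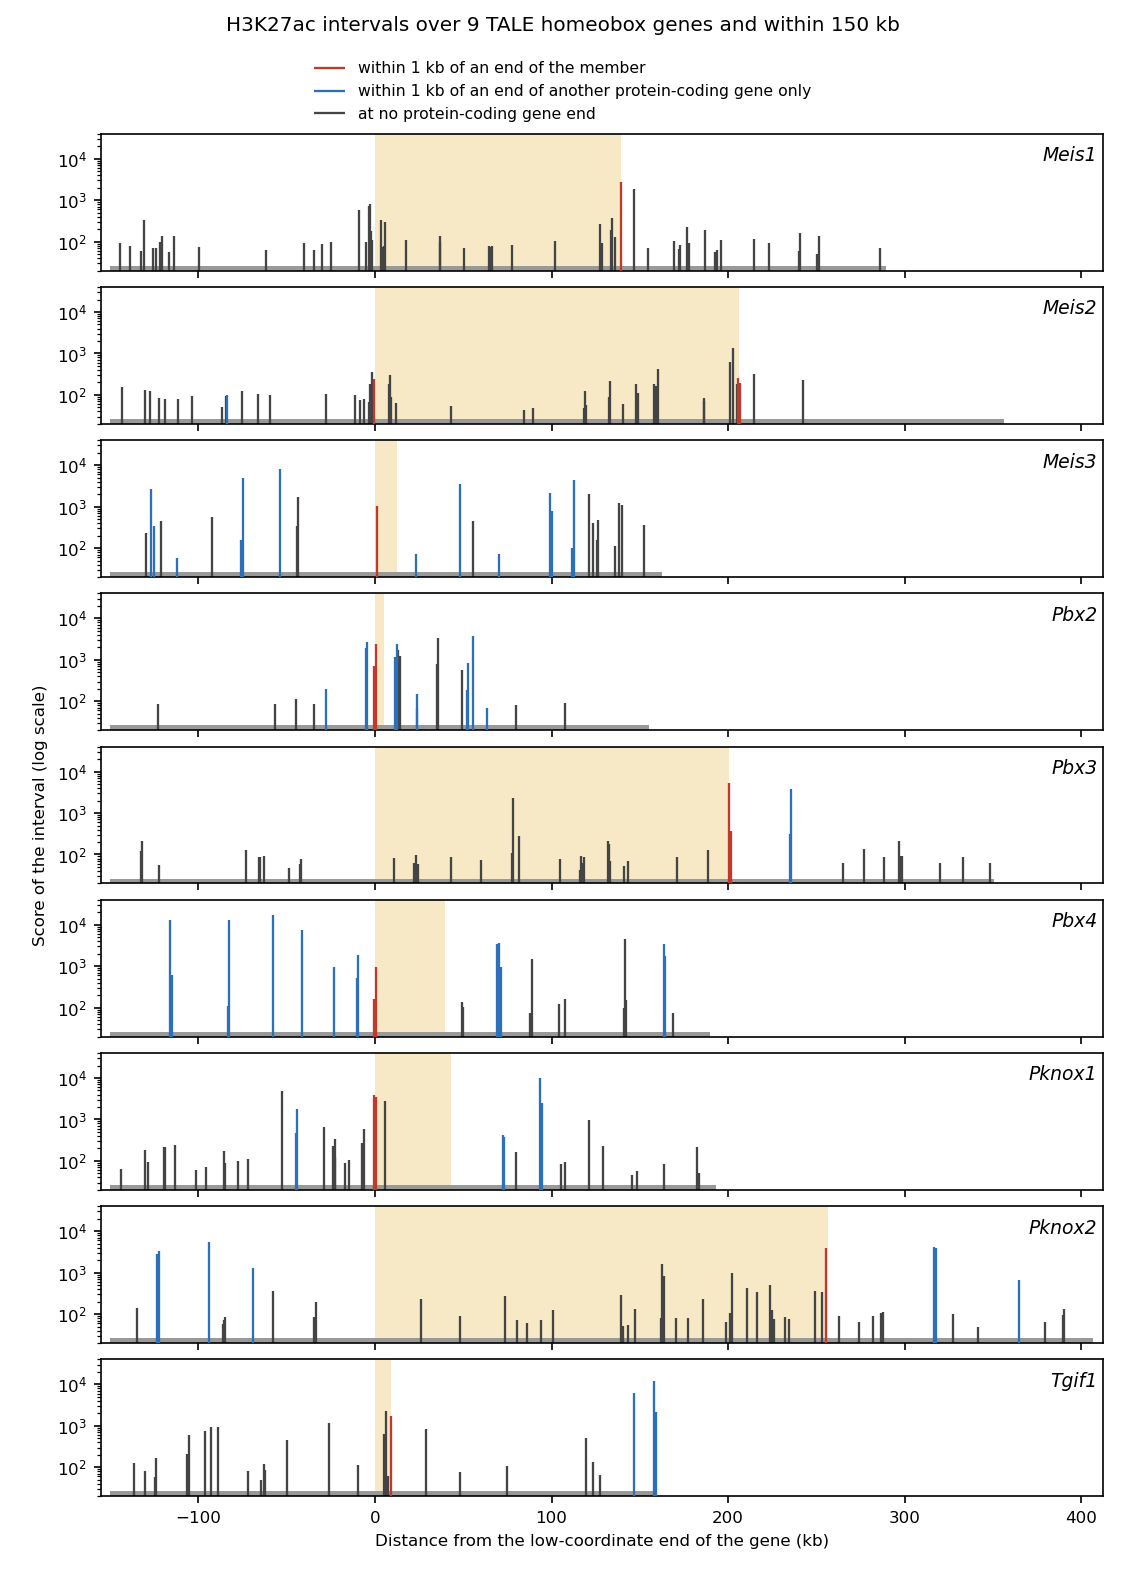
Score of each H3K27ac interval (y axis, log scale) by its distance in kb from the low-coordinate end of the gene, with the gene shaded and the window of 150 kb on either side marked by a grey bar; red lines lie at an end of the member, blue lines only at an end of another protein-coding gene, and black lines at no protein-coding gene end. Black lines fill the windows of Meis1, Meis2, Pbx3 and Pknox2. Blue lines, with scores up to 16914, hold the highest score in the windows of Meis3, Pbx2, Pbx4, Pknox1, Pknox2 and Tgif1.

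Over the gene and within 150 kb, the members held from 24 intervals (Pbx2) to 60 (Meis1). Pknox2 had 54, Meis2 48, Pbx3 45, Pknox1 40, Tgif1 29, Meis3 28 and Pbx4 26. The median was 40, against 22 for all protein-coding genes. The members were longer, with a median length of 43.0 kb against 17.2 kb, so their windows were longer too. Per 100 kb of window the median was 9.38, against 6.42 for all genes, and each of the 9 members lay above the latter at these settings. In 7 of 8 alternative settings at least 1 member fell below the median of all genes: Pbx3 with either limit on the score, Pbx4 with neighbouring intervals joined, Meis3 with flanks of 50 kb and Pbx2 with flanks of 300 kb. Pbx4 and Pbx2 did so without intervals at ends of other genes, and Meis3, Pbx2 and Pbx4 with only the nearest intervals.

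The order by density ran from Meis1 with 13.7 intervals per 100 kb, above 95.3% of protein-coding genes, to Pbx4 with 7.65, above 61.0%. Pknox1 had 11.7, and the other 6 members lay between 7.87 and 9.71, a narrow range in which the order has no measured error. Both the first and the last place depended on the settings. Meis3 came first with scores of at least 100 (8.00 per 100 kb) and in the higher-scored 50% of intervals (7.68), and at the former Meis1 had 27 of its 60 intervals left. Pbx2 came first with flanks of 50 kb (18.1 per 100 kb), and Pknox1 with flanks of 300 kb (12.4). The last place went to Pbx3 with scores of at least 100, where 15 of its 45 intervals were left (3.00 per 100 kb), and in the higher-scored 50% (2.80). Meis3 was last with flanks of 50 kb (5.33) and with only the nearest intervals (0.320), and Pbx2 with flanks of 300 kb (6.28).

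**Figure D3:**
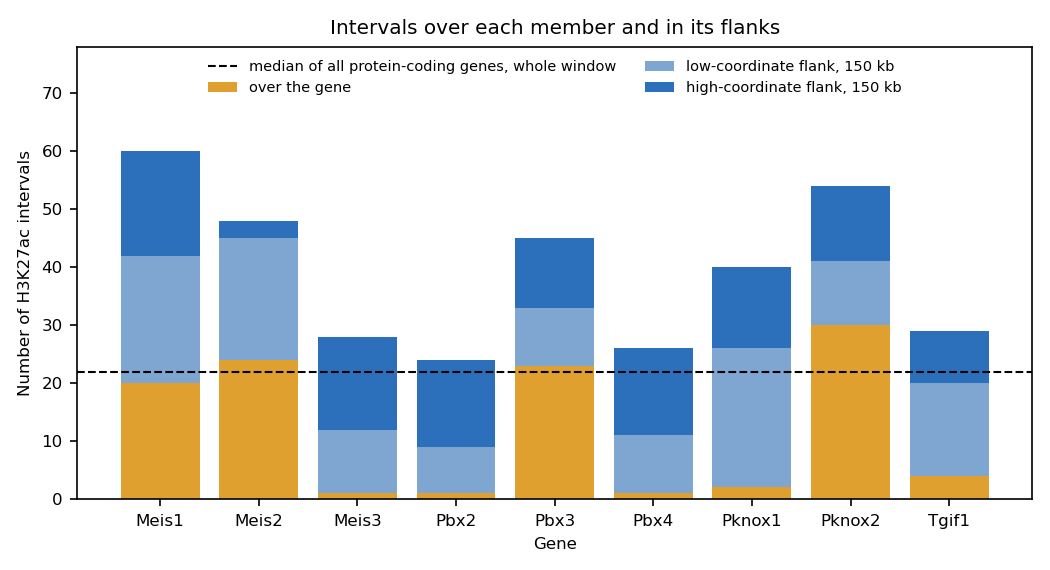
Number of H3K27ac intervals over each member (orange) and in its low-coordinate and high-coordinate flanks of 150 kb (light and dark blue); the dashed line is the median of all protein-coding genes over the whole window. All 9 bars reach above the line at 22, and the orange part is 20 to 30 in Meis1, Meis2, Pbx3 and Pknox2 and 1 to 4 in the other 5.

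The members fell into 2 arrangements that follow gene length. Meis1, Meis2, Pbx3 and Pknox2, from 139.2 to 256.4 kb long, held 20, 24, 23 and 30 intervals over the gene, 97 in all, of which 93 lay away from the gene's own ends. The other 5 members, from 5.14 to 43.0 kb long, held 9 in all. Per 100 kb of gene, the 4 long members had from 11.5 (Pbx3) to 14.4 (Meis1) intervals. The short ones had 42.9 (Tgif1), 19.4 (Pbx2), 8.00 (Meis3), 4.65 (Pknox1) and 2.51 (Pbx4). Among 1872 protein-coding genes of 100 to 300 kb the median was 10 intervals over the gene, and 17.2% had 20 or more, a limit set after the values were seen. In that length class, Meis1 stood above 82.8% of genes, Pbx3 above 88.1%, Meis2 above 90.1% and Pknox2 above 95.8%. The 97 intervals over the 4 long members had a median score of 96 and a median width of 250 bp, close to the 99 and 246 bp of all intervals at no protein-coding gene end.

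**Figure D4:**
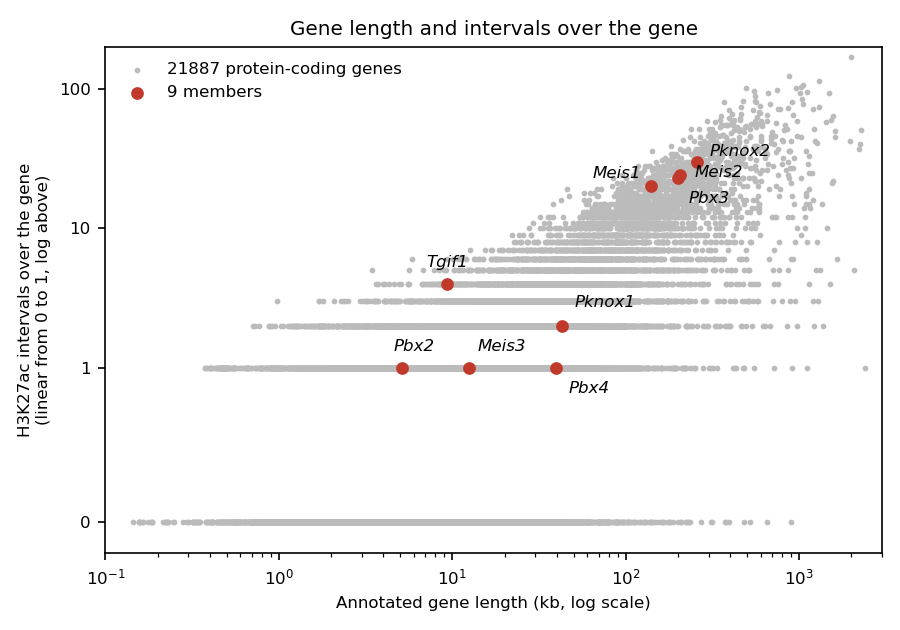
Number of H3K27ac intervals over the gene (y axis, linear from 0 to 1 and log above) against annotated gene length in kb (x axis, log scale) for 21887 protein-coding genes (grey) and the 9 members (red). The 4 long members lie in the upper part of the grey cloud at their length, while Pbx2, Meis3 and Pbx4 have 1 interval each.

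The place of the intervals inside the long genes was described without a test. Counted in 4 equal stretches of the gene from the end with the higher score, Pknox2 had 13, 10, 5 and 2 intervals, so most lay towards its marked end. Meis2 had 9, 8, 2 and 5, with a stretch of 41.3 kb without any. Meis1 had 6, 2, 7 and 5, and its highest scores after the promoter lay near the ends of the gene, at 367 and 331. Pbx3 had 3, 11, 4 and 5, with the highest count in the second stretch and its strongest inner interval in the third.

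The flanks differed in whose intervals they held. Around Meis1 none of the 60 intervals lay at an end of another protein-coding gene, and around Meis2 and Pbx3 there were 1 and 2. Around Pbx4, Pbx2 and Meis3 the share was 57.7%, 54.2% and 46.4%, and it was 15.0% around Pknox1, 13.0% around Pknox2 and 10.3% around Tgif1. Over all member intervals it was 16.9%. In the whole list, 20724 of 125580 intervals on chromosomes lay at an end of any protein-coding gene. The highest score in the Pbx4 window, 16914, lay at Zfp866 (chr8:69774192-69774980), a zinc-finger gene, and that in the Meis3 window, 7915, at Kptn. In the windows of Pknox1 and Tgif1 the highest scores were 9865 at U2af1, which encodes a splicing factor, and 12203 at the shared end of Myl12a and Myom1. In those of Pknox2 and Pbx2 they were 5599 at Ei24 and 3804 at ends of Atf6b and Fkbpl. When only intervals closest to the member were kept, Meis1 retained all 60, Meis2 35, and Pbx3 and Pknox2 34 each. Tgif1 then had 7, Pknox1 6, Pbx4 2, and Pbx2 and Meis3 1 each, so most intervals in the windows of the 5 short members lay closer to another gene.

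Away from all protein-coding gene ends, the median score around each of the 5 short members was above that around each of the 4 long ones. The median of these intervals was 447.5 for Meis3 (14 intervals), 143.5 for Pknox1 (32), 136 for Tgif1 (25), 130.5 for Pbx4 (10) and 113 for Pbx2 (11), against 85 for Pbx3 (41), 95 for Meis1 (59), 96.5 for Pknox2 (46) and 102 for Meis2 (44). The median of all such intervals in the list was 99. The strongest of them around a short member was chr17:31511549-31512745, with a score of 4803, 52.0 kb outside Pknox1. It lay inside Wdr4, and 4542 was reached inside Gatad2a in the Pbx4 window (chr8:69973706-69974361). Around Tgif1, chr17:70817903-70818456 had a score of 1188 and lay 25.7 kb away, inside Dlgap1.

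Meis1 and Meis2 stand beside large stretches without other protein-coding genes. The nearest neighbours of Meis1 were Etaa1, 927 kb away on the low-coordinate side, and Spred2, an inhibitor of Ras signalling, 905 kb away on the high side. The 1971 kb between them held 161 intervals. Meis1 is transcribed from the high side, which is therefore upstream. Within 50 kb of the gene the sides held 10 intervals (low) and 9 (high). From 450 to 800 kb they held 8 and 31, or 2.29 and 8.86 per 100 kb, so intervals became sparse downstream but not upstream.

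Meis2 showed the opposite sides. It is also transcribed from the high side, where the nearest gene, Tmco5, was 811 kb away. That upstream flank held 3 intervals within 50 kb and none from 50 to 300 kb, then 2 from 300 to 450 kb and 7 from 450 to 800 kb. The downstream flank held 21 within 150 kb, of which 1 lay at the end of BC052040, 82.5 kb away. Of the 3 upstream intervals the strongest was chr2:116075472-116076495, with a score of 317, at an end of the non-coding gene 2810405F15Rik.

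**Figure D5:**
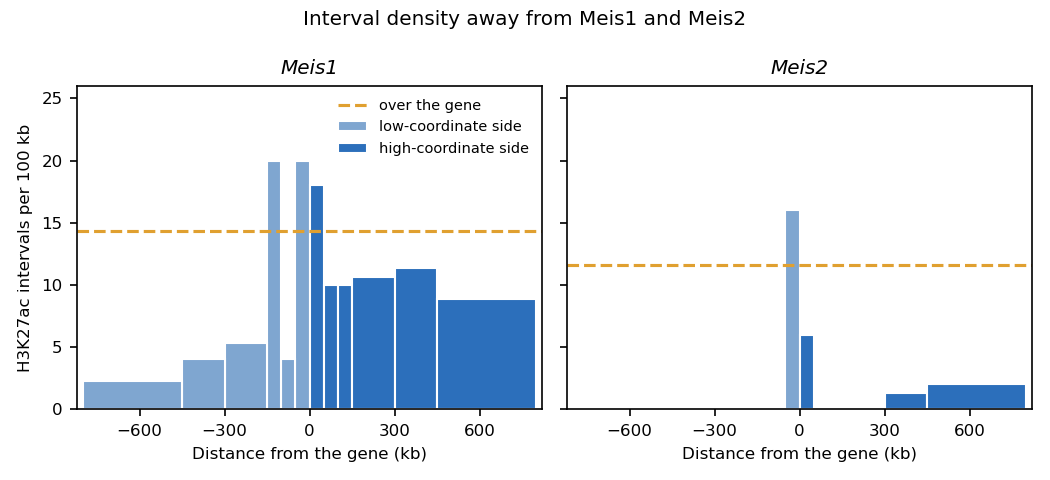
H3K27ac intervals per 100 kb (y axis) in steps of distance from Meis1 and Meis2 in kb (x axis; low-coordinate side at negative and high-coordinate side at positive distances), with the density over the gene as a dashed line; for Meis2 only the first 50 kb of the low side are drawn, since another gene follows. Meis1 keeps 8.86 intervals per 100 kb at 450 to 800 kb on its high side, and Meis2 has none from 50 to 300 kb there.

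Other TALE genes were read the same way. Of Tgif2, Mkx and 6 Irx genes, 6 of 8 had an interval at a gene end, with a median score of 1203, and Irx2 and Irx4 had none. Tgif2, the paralogue of Tgif1, had the highest at 3639, Irx5 had 1673, Irx3 1624, and Mkx, a regulator of tendon, 782. Their windows held a median of 24.5 intervals, from 7 at Irx1 to 39 at Irx3. The Hox genes of groups 1 to 3, partners of Meis and Pbx factors, had an interval at an end in 5 of 8. Over all protein-coding genes the share was 65.0%. The Hox scores ran from 45 at Hoxd1 to 800 at Hoxb2, with 443 at Hoxa2. Of the 9 members, 8 had a higher score than every one of these Hox genes, and Meis2 at its gene ends did not. The median of the marked Hox genes was 348, far below the 2494 of all marked protein-coding genes. That of the members, 2362, was close to it, so the difference lay in low Hox scores in this pooled list. The list merges 4 populations, so these scores cannot show how strongly Hox genes were acetylated in any 1 of them.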

How the data were processed

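The study holds 28 libraries in 25 groups. The list used rests on 4 of them. The other 24 were not used here. As the deposited description states, the authors merged the alignments of the wild-type E10.5 H3K27ac libraries and called intervals with MACS2 2.1.3.3 (no model, shift 0, extension size 141 bp, all duplicates kept, q-value limit 0.001), with no control named. The submitters' processing notes name Bowtie 1.1.1, bcl2fastq 2.17 and the build GRCm38 (mm10). The deposited score is a whole number per interval, by convention 10 times −log10 of the q-value.

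Gene positions came from RefSeq, GRCm38.p6, with starts and strands where promoter windows were listed. An overlap of 1 bp counted. Gene ends were the 1 kb on either side of an annotated end. Percentiles give the share of genes with a lower value. No test was run. All members were described, with the highest-scored interval at each end, inside the gene and in each flank, and the nearest genes. Members, lists and alternatives were chosen with earlier results of these data known. Window counts were tested on simulated data, with 200 of 200 genes recovered. Python 3.11.15, numpy 2.4.6 and pandas 2.3.3 were used.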

Additional observations from a re-analysis of the deposited data

How the results depend on the processing

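The median of the members stayed above that of all protein-coding genes in all 8 alternatives for the window counts, but in 7 of them at least 1 of Pbx3, Pbx4, Meis3 and Pbx2 had a lower density than all genes. With scores of at least 100, the median count was 25 (13 for all genes), the median density 6.15 per 100 kb and the total 211. In the higher-scored 50% of intervals these were 22 (12), 5.57 and 194. With flanks of 50 kb the median was 19 (8) and the total 202, and with flanks of 300 kb 63 (42) and 568. With only intervals nearest to the member they were 7 (2), 2.26 per 100 kb and 180. Fewer intervals or other window lengths make these shifts by construction. Of 72 counts for single members, 40 stayed within 1.5 times the value reported, and Meis1 was densest in 4 of 8 settings. All 9 members had a marked gene end in the higher-scored 50% of intervals, but Meis3 and Pknox2 lost it when 50% of the interval had to lie in the window. Added after the data were seen, limits of 0.5 and 2.5 kb gave 3 and 5 member starts between 2 intervals (13.4% and 14.9% of all starts). Also added then, a gene-end window of 2.5 kb moved the share of member intervals at ends of other genes from 16.9% to 20.9%. With the 1 kb window, 20724 of all 125580 intervals on chromosomes lay at a protein-coding gene end. No paired analysis was possible because the list pools all 4 libraries. Unknown depth limits weak intervals, and an absent interval does not show absent acetylation.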
